A study of Mus musculus and Homo sapiens with 10 samples.

Results

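In mouse NIH3T3 fibroblasts, 1052 wide stretches of trimethylated lysine 9 of histone H3 (H3K9me3) carried no peak of RNA polymerase II (Pol II) and none of 3 active histone marks. They are called domains here. A domain is a single called H3K9me3 peak on a numbered chromosome, with end minus start of 2000 bp or more, that shares not even 1 bp with a peak of Pol II, H3K4me3, H3K9ac or H4 hyperacetylation. They were chosen by the position and width of the called peaks, and were 1052 of the 22406 H3K9me3 peaks on chromosomes 1 to 19 (4.70%), and the whole H3K9me3 list held 23795 peaks. The H3K9me3 list and the 4 lists of Pol II and active marks were used for this choice, so values from them are a description and were not tested.

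The data are peak lists from chromatin immunoprecipitation followed by sequencing (ChIP-seq) in exponentially growing NIH3T3, an immortalized mouse fibroblast line, with no treatment named in the labels. One list was used for each antibody: H3K9me3, upstream binding factor (UBF, antibody against UBF1/2), RNA polymerase I (Pol I, antibodies against its largest subunit POLR1A/RPA194), Pol II (antibody to the phosphorylated C-terminal repeat), H3K4me3, H3K9ac and H4 hyperacetylation. The 3 lists from human lines in the series were not analysed here. For UBF the design speaks of 2 biological replicates, but a single list was analysed, and the labels do not say how it was made from them. Each list is 1 sample without replicate error, peaks carry no height or read count, and the sequencing depth is unknown. The UBF list held 3584 peaks on numbered chromosomes and the Pol I list 1389, against 29588 Pol II, 27135 H3K4me3, 27550 H3K9ac and 40375 H4 hyperacetylation peaks. Intervals in brackets are exact (Clopper-Pearson) 95% intervals over peaks. They cover counting error only, and neighbouring peaks are not independent.

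H3K9me3 is the best known mark of silent chromatin. It is written by enzymes such as SUV39H1, SUV39H2 and SETDB1, the last often brought to DNA by zinc finger proteins through TRIM28, and it is read by HP1 proteins. It covers the satellite repeats beside the centromeres, many retroelements and clusters of zinc finger genes. UBF and Pol I are known for the ribosomal RNA genes, whose silent copies also carry H3K9me3.

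The domains were short for a class named wide. Their median width was 2406 bp (quartiles 2153 and 2843 bp), and together they covered 2.80 Mb, which was 10.2% of the sequence in H3K9me3 peaks on these chromosomes. Of the 1052, 596 were below 2500 bp, 241 measured 2500 bp or more but below 3000 bp, 160 at least 3000 bp but below 4000 bp, and 32 at least 4000 bp but below 5000 bp. The remaining 23 (2.19%) reached 5000 bp or more. Most of the class therefore lay close to the threshold that defines it.

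The threshold cut through a continuous run of widths. Just inside it lay 3 domains of exactly 2000 bp, the first 2 of them from 29526266 to 29528266 of chromosome 6 and from 48758705 to 48760705 of chromosome 11. Just outside lay 2 H3K9me3 peaks of 1999 bp without active marks, from 13128847 to 13130846 of chromosome 13 and from 30553815 to 30555814 of chromosome 16.

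Width and freedom from active marks went in opposite directions. Among all 1893 H3K9me3 peaks of 2000 bp or more, 1052 (55.6%) met none of the 4 lists, against 15458 of the 20513 narrower peaks (75.4%). The share without active marks was 45.8% at 3000 bp or more, 58.8% from 2000 to below 3000 bp, and 82.8% below 750 bp. A wider peak has more room for an overlap of 1 bp, so part of this fall follows from the rule. How large that part is was not tested. The 841 wide peaks left out by the rule met H4 hyperacetylation most often (714 peaks), then H3K4me3 (520), Pol II (514) and H3K9ac (497). H4 hyperacetylation was the only obstacle for 131 of them and Pol II for 107, against 7 for H3K4me3 and 3 for H3K9ac. In the same order, these were 6.92%, 5.65%, 0.370% and 0.158% of the 1893 wide peaks. Of the 20513 narrower peaks the shares were 5.21%, 1.68%, 0.517% and 0.0487%. The widest H3K9me3 peak left out measured 39114 bp, against 9841 bp for the widest domain.

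**Figure D1:**
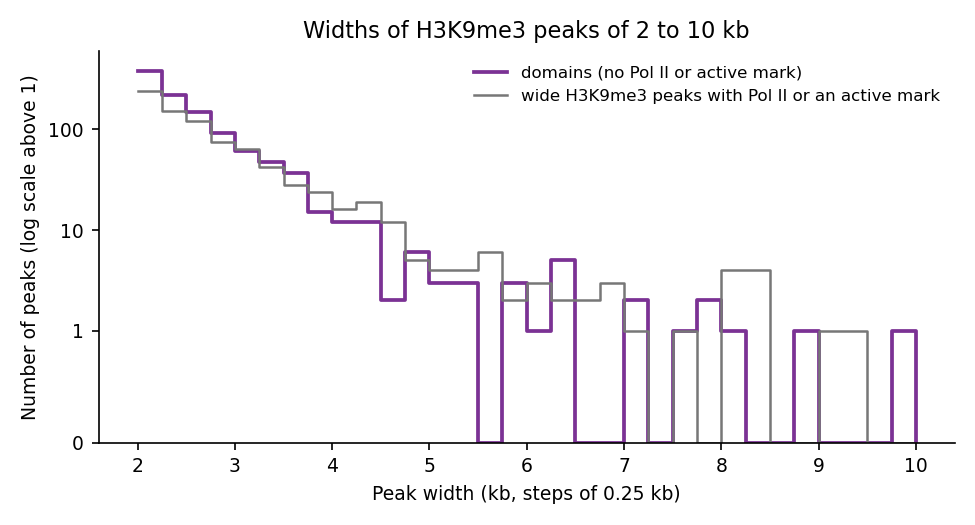
Number of H3K9me3 peaks (vertical axis, logarithmic above 1) by width in kb (horizontal axis, steps of 0.25 kb up to 10 kb) for the domains (purple) and the wide peaks with Pol II or an active mark (grey). Both fall steeply from 2 kb, and 23 domains reach 5 kb or more.

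The 10 widest domains were of several kinds by their surroundings. The widest lay on chromosome 5 from 144012176 to 144022017 (9841 bp), with a Pol II peak 2.90 kb away and 5 other H3K9me3 peaks within 10 kb. The second lay on chromosome 17 from 3024166 to 3032966 (8800 bp), only 19.4 kb from the lowest coordinate that any NIH3T3 list reached on that chromosome. Chromosome 4 held 2 of the same kind, from 3005762 to 3013588 (7826 bp) and from 3102110 to 3109973 (7863 bp), the first of which was itself the lowest peak of any list there. Mouse chromosomes carry the centromere at this end, and the assembled sequence begins after it.

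Others of the 10 stood far from any active peak. The domain on chromosome 7 from 12595531 to 12603568 (8037 bp) was 403 kb from the nearest, and the domain on chromosome 13 from 65627967 to 65634407 (6440 bp) was 246 kb away. By contrast the domain on chromosome 2 from 165204051 to 165211639 (7588 bp) had an H4 hyperacetylation peak 354 bp from its edge. The rest ran from 20261163 to 20268367 of chromosome 12 (7204 bp), from 45179110 to 45186207 of chromosome 3 (7097 bp) and from 90141087 to 90147515 of chromosome 1 (6428 bp). Of the 10, 4 had an active peak within 10 kb, 8 had another H3K9me3 peak within 10 kb, and none met UBF or Pol I. Over all 1052 domains the shares were 43.1% and 54.6%, and 0.095% each for UBF and Pol I. Counts of 10 are too small to set the widest apart from the other domains.

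The domains were spread unevenly over the chromosomes. Chromosome 11 held 110, chromosome 4 held 105 and chromosome 5 held 102, together 30.1% of the domains on 17.4% of the covered span. Those 3 chromosomes held 24.6% of all H3K9me3 peaks. They were also rich in wide H3K9me3 peaks as a whole, with or without active marks. Of 1893 such peaks, chromosome 11 held 215, chromosome 4 held 172 and chromosome 5 held 190. Chromosome 14 held 10 and chromosome 18 held 22. Per Mb of the span reached by the NIH3T3 lists, the density was 0.93 on chromosome 11 and 0.082 on chromosome 14, an 11.3-fold range, against 0.44 over all 19.

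This unevenness was only in part that of the H3K9me3 list. All H3K9me3 peaks had a density of 14.5 per Mb on chromosome 19, the highest, 14.1 on chromosome 11 and 4.90 on chromosome 14, the lowest, a 2.96-fold range. Domains made up 6.57% (5.43 to 7.86) of the H3K9me3 peaks of chromosome 11 and 1.67% (0.805 to 3.05) of those of chromosome 14. Chromosome 18 was also low, at 2.59% (1.63 to 3.90), although its density of H3K9me3 peaks, 9.66 per Mb, was above the 9.28 per Mb of all chromosomes. On the remaining 16 chromosomes the share lay between 3.48% (chromosome 12) and 5.58% (chromosome 6). All H3K9me3 peaks of 2000 bp or more, with or without active marks, were uneven in the same direction on chromosomes 11, 14 and 18. They made up 12.8% of the H3K9me3 peaks of chromosome 11, 4.36% on chromosome 18 and 2.84% on chromosome 14. These wide peaks include the domains themselves. Other chromosomes did not all follow. On chromosome 8 wide peaks made up 10.2% of the H3K9me3 peaks but domains 3.56%, and on chromosome 13 the values were 6.03% and 4.52%. How far the uneven share of domains is that of wide peaks was not tested.

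Chromosomes dense in domains tended to be dense in the other lists. Across the 19 chromosomes, domains per Mb rose with all H3K9me3 peaks per Mb (Spearman rho 0.87, Pearson r 0.90), with Pol II peaks per Mb (rho 0.78, r 0.83) and with Pol I peaks per Mb (rho 0.89, r 0.88), and less closely with UBF peaks per Mb (rho 0.58, r 0.63). Chromosome 11 was first in domains, Pol II, Pol I and UBF per Mb. The points share the cell line, its chromosome copy numbers and the mappable sequence of each chromosome, and the part these play was not tested.

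**Figure D2:**
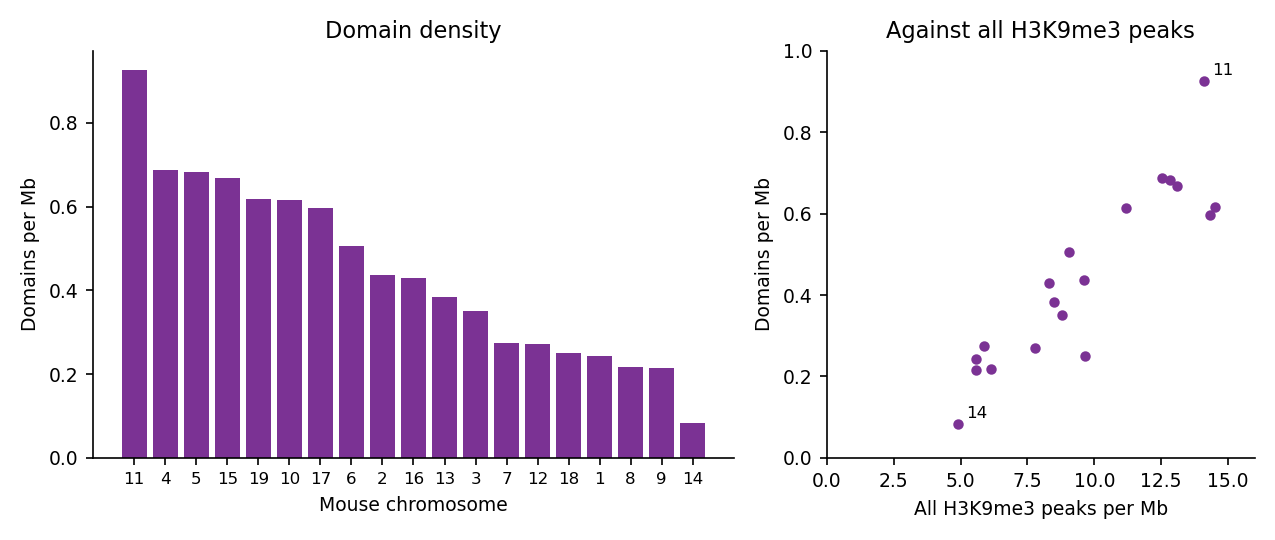
Left, domains per Mb for each of the 19 numbered mouse chromosomes, in falling order. Right, domains per Mb against all H3K9me3 peaks per Mb, 1 point per chromosome; chromosome 11 lies highest at 0.93 and chromosome 14 lowest at 0.082.

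Domains were commoner near both ends of the chromosomes. With each chromosome's span cut into 10 equal parts, the first part held 150 domains (14.3%, 12.2 to 16.5) and the last 165 (15.7%, 13.5 to 18.02), while each of the 8 parts between held 77 to 107. The 2 outer parts together held 29.9% (27.2 to 32.8) of the domains, 23.7% (23.1 to 24.4) of the narrow H3K9me3 peaks without active marks and 23.8% of all H3K9me3 peaks.

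The chromosomes did not all share this pattern. The share in the first part was higher for domains than for narrow peaks without active marks on 14 of 19 chromosomes, and the share in the last part on 12 of 19. Chromosome 5 held 30 of its domains in the last part, chromosome 4 held 26, chromosome 2 held 20 and chromosome 11 held 19, so that these 4 made up most of the 165. Within 1 Mb of the lowest peak of the chromosome lay 27 domains (2.57%, 1.70 to 3.71), against 1.38% (1.21 to 1.58) of the narrow peaks and 1.40% of all H3K9me3 peaks. Of the wide peaks with active marks 2.38% (1.46 to 3.65) lay there, and 25.4% (22.5 to 28.5) lay in the first and last parts together. Taken singly, the last part held 15.1% (12.7 to 17.7) of those wide peaks, close to its share of the domains. The first part held 10.3% (8.37 to 12.6) of them. The 27 domains were spread over 13 chromosomes, with at most 4 on any of them.

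**Figure D3:**
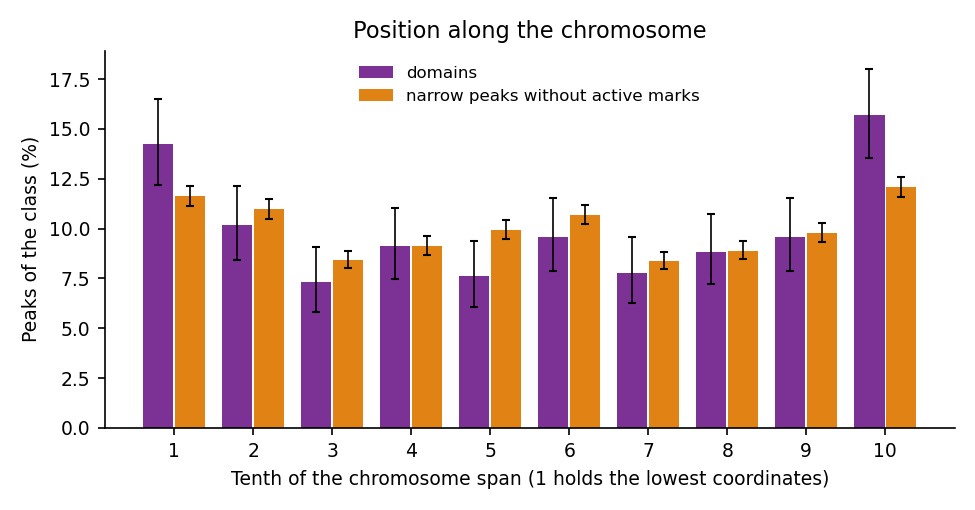
Share of the domains (purple) and of the narrow H3K9me3 peaks without active marks (orange) in each of 10 equal parts of the chromosome span, part 1 holding the lowest coordinates. Error bars are exact 95% binomial intervals; the domains stand highest in parts 1 and 10, at 14.3% and 15.7%.

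About 28% of the domains came in clusters. Taking domains up to 100 kb apart (edge to edge) as joined, 294 (27.9%, 25.3 to 30.8) fell into 115 clusters and 758 stood alone. The share depends on the distance chosen, from 18.9% at 50 kb to 54.1% at 500 kb. No such share is given for other H3K9me3 peaks, so clustering cannot be called particular to the domains. Of the clusters, 79 held 2 domains, 22 held 3 and 14 held 4 or more. Chromosome 5 had 15 clusters with 43 domains and chromosome 4 had 13 with 42, while chromosome 13 had the highest share of its domains in clusters, 24 of 45 (53.3%). Of the 115 clusters, 55 held no Pol II or active mark peak anywhere between their first and last domain. The median span of the clusters was 55.0 kb, and their domains were chosen to be free of such peaks. No count is given for other spans of this length, so this cannot be called particular to the clusters.

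The largest cluster held 10 domains on chromosome 13, over 406 kb from 65359111 to 65765166. Its domains were 2118 to 6440 bp wide and were accompanied by 37 other H3K9me3 peaks, all together 17.6% of the span. Pol II, H3K4me3, H3K9ac and H4 hyperacetylation had 1 peak each in it. One UBF peak, from 65581832 to 65582780, lay between 2 domains, 3.43 kb from the nearer, and met none of the H3K9me3, Pol II and active mark lists. The 1-Mb window around this cluster was also the fullest of all, with 12 domains among 70 H3K9me3 peaks.

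Chromosome 4 held the next clusters. The second, of 7 domains from 146709565 to 146841742, had 17 further H3K9me3 peaks, no Pol II, UBF or Pol I peak, 2 H3K4me3 peaks and 1 peak each of H3K9ac and H4 hyperacetylation. It lay in a longer H3K9me3-rich stretch: the 1-Mb windows from 146000001 and from 145000001 held 10 and 9 domains among 126 and 104 H3K9me3 peaks. The third, of 6 domains from 60382849 to 60566069, held no peak of Pol II, any active mark, UBF or Pol I. Its domains were all narrow ones for the class, from 2010 to 2323 bp, and its 1-Mb window, from 60000001, held 7 domains among 41 H3K9me3 peaks.

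Chromosome 5 held 2 clusters of 5 domains. The one from 15166316 to 15212085 was compact, with 58.1% of its 45.8 kb in H3K9me3 peaks, and its 1-Mb window, from 15000001, held 7 domains among 63 H3K9me3 peaks. A UBF peak of 4509 bp, from 15203401 to 15207910, lay 917 bp from one of its domains and overlapped 2 narrower H3K9me3 peaks and 1 H4 hyperacetylation peak. The other, from 143937674 to 144061763, held the widest domain of all and 20 peaks of Pol II and the active marks between its domains, 7 of them Pol II.

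A cluster of the same size on chromosome 12, from 20235352 to 20302885, was added after its values were seen. H3K9me3 peaks filled 66.2% of it, and its domains included 3 of 5324, 7204 and 6081 bp. A UBF peak from 20284371 to 20285646 lay in it, 5.68 kb from the nearest domain, on 2 narrower H3K9me3 peaks and a Pol II peak. In all, 12 of the 115 clusters held a UBF peak and 7 a Pol I peak somewhere in their span. No such counts are given for other spans of the same length, so they show neither more nor less UBF or Pol I than elsewhere.

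**Figure D4:**
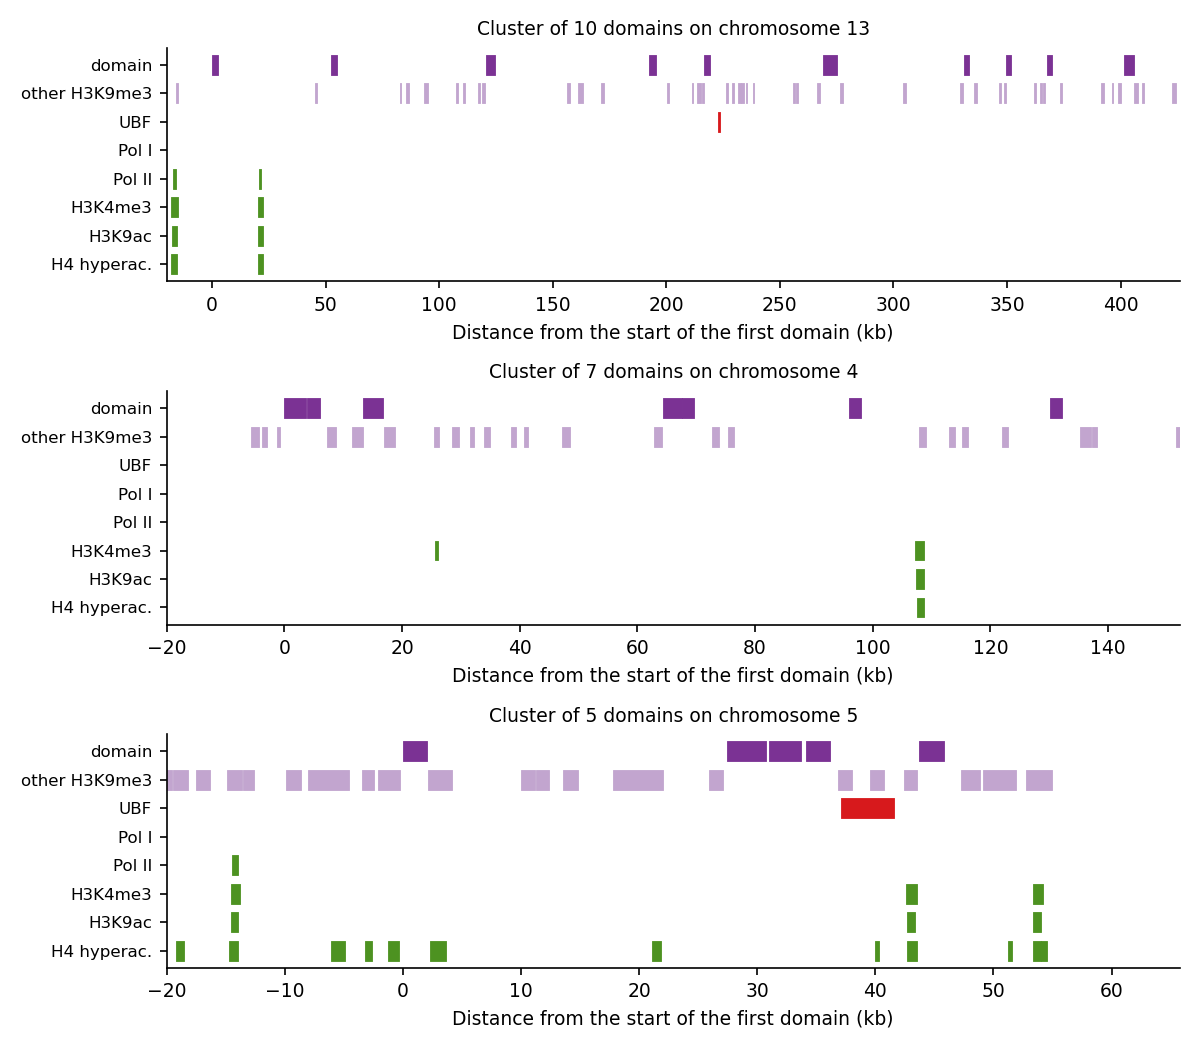
Peaks of each NIH3T3 list in the clusters of 10 domains on chromosome 13, 7 on chromosome 4 and 5 on chromosome 5 (from 15166316), by distance in kb from the start of the first domain, with 20 kb on either side. Each bar is 1 peak to scale; UBF has 1 peak in the first and 1 in the third cluster, both between domains.

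Although free of active marks, the domains often lay close to them. The nearest Pol II or active mark peak was at a median of 14.6 kb (quartiles 4.19 and 67.5 kb), against 29.8 kb (7.49 and 148 kb) for the 15458 narrow H3K9me3 peaks without active marks. Within 10 kb of such a peak lay 453 domains (43.1%, 40.0 to 46.1), 30.0% (29.3 to 30.7) of the narrow peaks, and 49.0% of all H3K9me3 peaks, which include those that overlap one. Within 100 kb lay 842 domains (80.04%, 77.5 to 82.4), 69.6% of the narrow peaks and 78.1% of all. The nearest peak was of H4 hyperacetylation for 426 domains, H3K4me3 for 370, Pol II for 130 and H3K9ac for 126. In the same order, the whole lists covered 63.8, 56.1, 26.8 and 54.5 Mb. Such counts are given for the domains only, so no list can be called a preferred neighbour of them.

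Active peaks were close more often to wider H3K9me3 peaks below the 2000-bp threshold, but not with width among the domains. Among H3K9me3 peaks without active marks, 28.1% below 750 bp had an active peak within 10 kb, 26.7% from there to below 1000 bp, 31.6% from 1000 to below 1500 bp, 37.3% from there to below 2000 bp, 43.6% from 2000 to below 3000 bp and 40.9% at 3000 bp or more. Among the domains alone, width and distance to an active peak had a Spearman rho of -0.0045 (across 1052 domains, given as a description), and the median distance was 14.2 kb below 3000 bp and 18.1 kb from there on. The median distance was shorter for domains than for narrow peaks on 15 of 19 chromosomes, all but 3, 12, 13 and 14. On chromosome 8 it was 3.84 kb for 28 domains and 23.7 kb for the narrow peaks, and on chromosome 13 it was 64.5 kb for 45 domains and 40.8 kb for the narrow peaks. Each single list gave the same order within 10 kb: Pol II 26.0% of domains and 16.1% of narrow peaks (32.5% of all H3K9me3 peaks), H3K4me3 31.5% and 21.6% (37.9%), H3K9ac 29.7% and 19.8% (35.9%), and H4 hyperacetylation 37.4% and 25.7% (44.4%).

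The extremes of distance were far apart. The nearest approach was 5 bp, between a domain on chromosome 11 from 95667744 to 95670498 and an H3K4me3 peak. The farthest domain, on chromosome 3 from 3012006 to 3014048, was 2196 kb from any active peak and was the lowest peak of any list on that chromosome. Over 100 kb from every active peak lay 210 domains (19.96%, 17.6 to 22.5). Their median width, 2430 bp, was close to the 2406 bp of the 453 domains within 10 kb, and 50 of them (23.8%) were in clusters, against 144 (31.8%) of those within 10 kb.

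Other H3K9me3 peaks were close neighbours as well. A second H3K9me3 peak lay within 10 kb of 574 domains (54.6%, 51.5 to 57.6), of 45.8% (45.0 to 46.6) of the narrow peaks without active marks and of 45.4% of all H3K9me3 peaks. Within 1 kb the shares were 24.0% (21.5 to 26.8), 17.9% (17.3 to 18.5) and 17.2%. The 841 wide peaks with active marks also had close neighbours, at 57.6% (54.1 to 60.9) within 10 kb and 23.7% (20.8 to 26.7) within 1 kb, and their intervals overlap those of the domains. The median distance was 7.64 kb for domains, 6.75 kb for wide peaks with active marks and 13.5 kb for narrow peaks without them, and it was shorter for domains than for those narrow peaks on 18 of 19 chromosomes.

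UBF and Pol I were almost absent from the domains themselves. One domain of 1052 met a UBF peak (0.095%, 0.0024 to 0.53) and another met a Pol I peak (0.095%, with the same interval), while none met both. Of all H3K9me3 peaks 2.73% met UBF and 0.977% met Pol I. Most of those carried active marks: UBF was on 45 of the 841 wide peaks with active marks (5.35%, 3.93 to 7.09) and on 529 of the 5055 narrow ones (10.5%, 9.63 to 11.3), and Pol I on 38 (4.52%, 3.22 to 6.15) and 171 (3.38%, 2.90 to 3.92).

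Against narrow H3K9me3 peaks without active marks the picture depended on the scale. UBF was on 37 of those 15458 peaks (0.239%, 0.169 to 0.330) and Pol I on 9 (0.058%, 0.027 to 0.110), and as shares of peaks both intervals overlap those of the domains. The domains are wider, however, and per Mb covered there were 0.357 domains with UBF (exact Poisson 95% interval 0.009 to 1.99) and 2.28 narrow peaks with UBF (1.61 to 3.14), with intervals apart. For Pol I these values were 0.357 (0.009 to 1.99) and 0.555 (0.254 to 1.05), with overlapping intervals. Each of the values for domains rests on 1 peak, and the differences were not tested. Overlap by 1 bp also depends on the width of the UBF or Pol I peak (medians 981 and 230 bp in the whole lists). Values per Mb covered therefore run high for narrow peaks against wide ones. The separate intervals for UBF cannot be read as a lack of UBF on the domains relative to narrow peaks. Seen from the other lists, 1 of 3584 UBF peaks and 1 of 1389 Pol I peaks lay on a domain.

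The domain with UBF was narrow and stood alone. It lay on chromosome 2 from 22598765 to 22600842 (2077 bp), and the UBF peak from 22600079 to 22600877 shared 763 of its 798 bp with it. That UBF peak met no Pol II or active mark peak, the nearest of which was 3.16 kb from the domain, and no other domain was nearer than 2435 kb. The domain with Pol I was on the same chromosome, from 181650977 to 181654236 (3259 bp), and held the whole of a Pol I peak of 189 bp from 181653238 to 181653427. It belonged to a cluster of 3 domains, the next starting 103 bp further on, and was 50.6 kb from an active peak and 395 kb from UBF.

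A few more UBF and Pol I peaks lay just outside a domain. Besides the overlaps, UBF came within 1 kb of 4 domains and Pol I within 1 kb of 2. With the overlaps included, UBF was within 1 kb of 0.475% of domains (0.154 to 1.11), 0.388% of narrow peaks without active marks and 3.13% of all H3K9me3 peaks, and Pol I of 0.285% (0.0588 to 0.831), 0.110% and 1.33%. A UBF peak of 2824 bp on chromosome 4, from 129879314 to 129882138, ended 633 bp before a domain of 2031 bp and met no other NIH3T3 list. On chromosome 6 a UBF peak from 100738257 to 100739130 began 244 bp after a domain, also without another list, and on chromosome 10 one from 66726139 to 66727183, with Pol II, began 665 bp after a domain. The last was the 4509-bp UBF peak of the chromosome 5 cluster described above. The 2 domains near Pol I were the neighbour of the chromosome 2 domain, 912 bp from the same Pol I peak, and one on chromosome 16 from 37796473 to 37800823, 531 bp from a Pol I peak and 106 bp from an active peak.

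At larger distances the domains were nearer to Pol I than the narrow peaks were, and the medians for UBF were closer together. UBF lay within 10 kb of 42 domains (3.99%, 2.89 to 5.36), of 2.85% (2.59 to 3.12) of the narrow peaks and of 5.82% of all H3K9me3 peaks, and within 100 kb of 31.7% (28.9 to 34.7), 27.6% (26.9 to 28.3) and 31.5%. Its median distance was 207 kb for domains and 228 kb for narrow peaks, shorter for domains on 10 of 19 chromosomes. Pol I lay within 10 kb of 20 domains (1.90%, 1.17 to 2.92), of 1.29% (1.12 to 1.48) of the narrow peaks and of 3.06% of all, and within 100 kb of 19.01% (16.7 to 21.5), 12.0% (11.5 to 12.5) and 16.8%. The median distance to Pol I was 494 kb for domains and 727 kb for narrow peaks, shorter for domains on 15 of 19 chromosomes. The difference between UBF and Pol I in this respect was not tested. The wide peaks with active marks lay nearer to both lists than the domains did. Their median distance was 145 kb to UBF and 168 kb to Pol I, with 39.7% and 40.0% within 100 kb.

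Closeness to UBF moved with closeness to active peaks. UBF was within 100 kb of 41.5% of the 453 domains with an active peak within 10 kb, of 27.2% of the 389 domains with one at 10 to 100 kb, and of 19.05% of the 210 domains farther away. The median distances to UBF were 139, 215 and 393 kb, and those to Pol I 296, 498 and 1040 kb. The part of the active peaks in these distances was not tested. This split is given for the domains only, so it cannot be called particular to them.

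**Figure D5:**
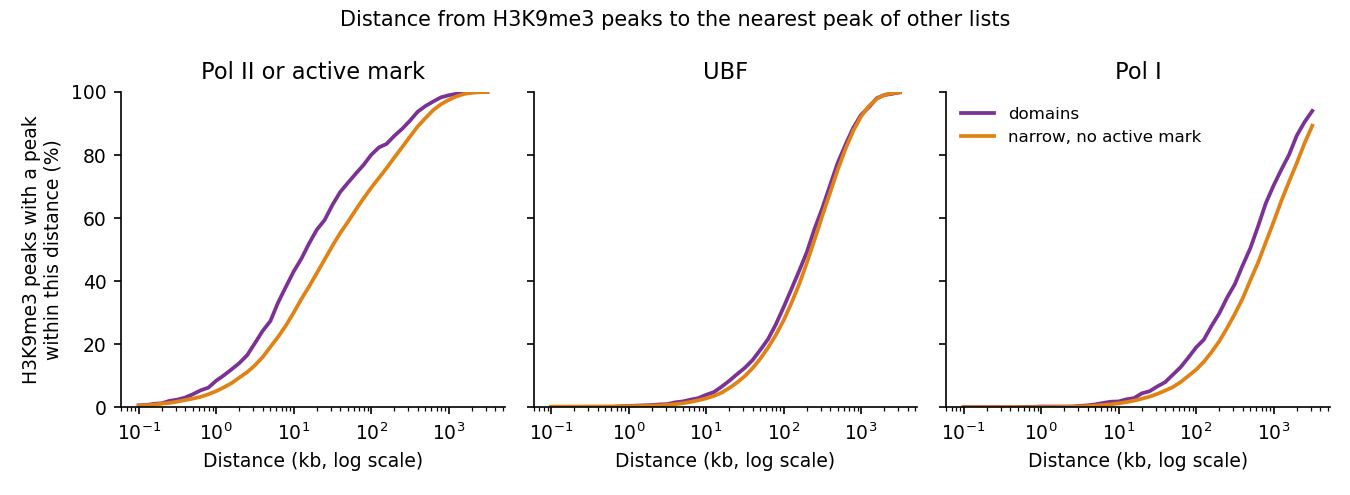
Share of the domains (purple) and of the narrow H3K9me3 peaks without active marks (orange) with a peak of Pol II or an active mark, of UBF and of Pol I within the distance on the horizontal axis (kb, logarithmic). The curves of the domains lie to the left for active peaks (medians 14.6 and 29.8 kb) and Pol I (494 and 727 kb). For UBF the medians are 207 and 228 kb, and the shares within 100 kb are 31.7% and 27.6%.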

How the data were processed

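For each antibody the authors deposited a 3-column peak list of chromosome, start and end, per the file headers, with no score. The Pol I list has no header and was read from its first line. The submitters' processing notes name CASAVA 1.8.2, BWA, Picard, mm9 and hg19, and the mouse coordinates are taken as mm9. Of the peak caller, its threshold, whether coordinates count from 0 or 1, and any pooling of replicates, nothing is given in the sources used here. No mm9 annotation or sequence was used, so domains are given by position, without genes.

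Overlap means at least 1 bp shared. Distances run edge to edge. A chromosome's span runs from the lowest to the highest coordinate of any NIH3T3 list. Windows of 1 Mb count domain centres. Named regions were the 10 widest domains, the 5 largest clusters and fullest windows, domains with UBF or Pol I, and those at the width threshold. Peaks within 1 kb of UBF or Pol I, the extremes of distance and the chromosome 12 cluster were added after their values were seen. The domains and the measures were chosen with earlier results of these data known. With 1 list per antibody no test between groups was possible, and no p-value was computed. Python 3.11.15, numpy 2.4.6, pandas 2.3.3 and scipy 1.17.1 were used, and the overlap code was tested on simulated data.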

Additional observations from a re-analysis of the deposited data

How the results depend on the processing

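The number of domains followed the width chosen. It was 2819 at 1500 bp or more, 215 at 3000 bp and 23 at 5000 bp, 1898 with H3K9me3 peaks up to 1000 bp apart joined first, and 599 with no active peak allowed within 10 kb. The share in clusters was 40.2%, 18.1% and 21.7% at those 3 widths, 31.1% after joining, 25.2% and 21.0% with no active peak within 1 kb or 10 kb, and 18.9%, 36.1% and 54.1% with domains joined over 50, 200 or 500 kb. The median distance to an active peak was 17.1, 18.1 and 29.4 kb at the 3 widths, 22.9 kb after joining, and 17.8 and 51.1 kb with the 1-kb and 10-kb exclusions, which remove the near domains by construction. The share with UBF was 0% at 3000 and 5000 bp, with the 10-kb exclusion and with the wider 50% of the UBF list, and that with Pol I was 0% at 5000 bp and with the wider 50% of its list. The shares with UBF and with Pol I as first reported, 0.095% each, rest on 1 domain each. Over all alternatives these shares stayed at or below 0.263% for UBF and 0.465% for Pol I. The fullest chromosome held 17.4% of the domains at 5000 bp (chromosome 12), and was chromosome 4 in place of 11 in 5 other alternatives. Leaving any 1 of the 4 active lists out of the rule, added after the data were seen, gave 1055 to 1183 domains. Depth is unknown, so what it limits cannot be given. No paired analysis was possible because each antibody has 1 list.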

Other observations

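Joining H3K9me3 peaks up to 1000 bp apart gave longer runs without active marks: 95 of the 1898 reached 5 kb and 6 reached 10 kb. The longest, on chromosome 12 from 20261163 to 20278694 (17531 bp), joined 4 peaks, and the next, on chromosome 7 from 30936128 to 30952676 (16548 bp), joined 7. With chromosomes X and Y and the contigs included, 1104 peaks fitted the definition of a domain.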
